A study of Homo sapiens with 6 samples.

Results

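The STAT transcription factors and the JAK kinases that act on them were followed through a count table of 61487 genes as 8 members, found by matching Ensembl gene IDs to their symbols: STAT2, STAT3, STAT5A, STAT5B, STAT6, JAK1, JAK2 and TYK2. The cells were H2170, an established line of human lung squamous cell carcinoma, and the title names the question, what condensates of the tyrosine kinase ACK1 do in the activation of STAT5. Control cells expressed GFP alone, WT cells expressed wild-type ACK1 joined to GFP, and IDRmut cells expressed an altered ACK1, also joined to GFP, whose changes the labels do not spell out. Each group had 2 libraries of poly-A selected RNA. All groups share the one cell line and a serum-containing medium, and no cytokine is named in the labels. The sources used here do not give how the constructs were brought into the cells, their promoter, or whether the cells were clones or pools.

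JAK kinases sit on the inner ends of cytokine receptors. When a cytokine brings receptor chains together, the kinases phosphorylate each other, the receptor and the STAT proteins docked on it, and the STATs pair up, enter the nucleus and bind DNA. JAK1, JAK2 and TYK2 are the broadly expressed kinases. STAT2 works with IRF9 in the complex ISGF3 that answers type I interferon, STAT3 answers cytokines of the interleukin-6 family, STAT6 answers interleukin-4 and interleukin-13, and STAT5A and STAT5B answer prolactin, growth hormone and several interleukins. The counts measure transcripts, and the phosphorylation that activates these proteins was not measured.

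The 3 STAT genes on chromosome 17 lie side by side. STAT5B (GRCh38, 42199168 to 42276707, minus strand), STAT5A (42287547 to 42311943, plus strand) and STAT3 (42313324 to 42388568, minus strand) are separated by 10840 and 1381 bases. STAT2 (56341597 to 56360155) and STAT6 (57095408 to 57132139) are on the minus strand of chromosome 12. JAK1 is on chromosome 1 (64833229 to 64966504), JAK2 on chromosome 9 (4984390 to 5128183) and TYK2 on chromosome 19 (10350529 to 10380676). Exons of other genes cover 1.75% of the STAT6 exon bases and 0.0633% of those of JAK1, and none of the other 6. STAT5A and STAT5B are near-identical copies in places: 6.14% of the distinct 100-base windows of STAT5A transcripts and 5.67% of those of STAT5B are found letter for letter in the other gene. No 100-base window of the other 6 members recurs in another gene. The sources used here do not give how reads that fit both STAT5 genes were counted, so a part of each STAT5 count could belong to the other. In Control, STAT5A had 112 and 86 counts and STAT5B 903 and 912, so the same number of misplaced reads would weigh more on STAT5A. The size of that part was not tested.

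DNA from around the RefSeq start of the 4 STAT genes on which the comparisons below turn is shown to set the neighbours STAT5A and STAT5B, and STAT2 and STAT3, beside each other. The stretches come from RefSeq (GRCh38.p14), run 5′ to 3′ on each gene's strand, and are the longest run without a GENCODE 29 exon in the 250 bases before the RefSeq start. They hold 202 bases for STAT2, 124 for STAT3, 250 for STAT5A and 221 for STAT5B, and lie at chr12:56360156-56360357 (STAT2), chr17:42388569-42388692 (STAT3), chr17:42287189-42287438 (STAT5A) and chr17:42276407-42276627 (STAT5B). The RefSeq and GENCODE starts differ, so the STAT5B stretch lies inside the gene span given above and the STAT5A stretch ends short of its start. Capitals mark GC boxes (GGGCGG) and CCAAT boxes (CCAAT) on either strand.
STAT2: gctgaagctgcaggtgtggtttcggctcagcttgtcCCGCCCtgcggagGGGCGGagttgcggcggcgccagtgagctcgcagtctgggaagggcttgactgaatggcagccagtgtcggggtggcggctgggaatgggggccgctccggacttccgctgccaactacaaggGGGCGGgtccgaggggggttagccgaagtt
STAT3: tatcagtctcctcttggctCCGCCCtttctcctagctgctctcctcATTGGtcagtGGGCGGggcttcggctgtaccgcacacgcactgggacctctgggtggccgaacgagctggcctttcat
STAT5A: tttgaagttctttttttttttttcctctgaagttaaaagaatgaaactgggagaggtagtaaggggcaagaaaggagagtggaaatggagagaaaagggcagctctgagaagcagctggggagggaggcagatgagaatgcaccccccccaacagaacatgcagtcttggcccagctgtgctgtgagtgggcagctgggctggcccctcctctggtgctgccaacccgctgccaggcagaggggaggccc
STAT5B: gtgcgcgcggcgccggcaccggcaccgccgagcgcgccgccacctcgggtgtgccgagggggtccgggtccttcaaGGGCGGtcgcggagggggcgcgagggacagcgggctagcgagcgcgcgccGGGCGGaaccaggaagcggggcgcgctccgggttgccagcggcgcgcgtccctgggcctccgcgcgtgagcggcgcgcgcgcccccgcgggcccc
The 2 STAT5 stretches differed in base composition, at 54.8% G and C for STAT5A and 83.3% for STAT5B. In the full 250 bases before the RefSeq start, STAT2 held 3 GC boxes, STAT5B 2, and STAT3 2 together with 2 CCAAT boxes, while STAT5A held neither motif. One of the STAT3 CCAAT boxes lies outside the stretch shown. Over 35116 such windows of all genes, 42.6% held a GC box and 32% a CCAAT box. TYK2 held 6 CCAAT boxes. Neither the STAT binding motif GAS (TTCNNNGAA, found in 6.57% of all windows on either strand) nor the ISGF3 motif ISRE (GAAA, any 2 bases, GAAA, found in 3.02%) occurred in the windows of the 8 members, which says only that these letters are not in these 250 bases. Where RefSeq lists several starts of a gene, the most upstream was used. The JAK1 window (chr1:65067747-65067996) lies upstream of and outside the JAK1 span given above. That of STAT6 lies inside the STAT6 span, with its exon-free stretch at chr12:57110341-57110381. For JAK1 and STAT6 the motif statement therefore does not cover the bases before the starts given above. No matches overlapped each other.

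Library totals ran from 19128111 to 33540998 counts, with WT replicate 2 the deepest, and 16591 genes passed the filter on low counts. TNK2, the gene of ACK1, had 41.1 and 43.1 CPM in the Control libraries, 3510 and 3608 in those of WT and 1759 and 1453 in those of IDRmut, where CPM is the count scaled to library size, with libraries adjusted by TMM factors. It was 2.22 times as high in WT as in IDRmut, so each difference between WT and IDRmut cannot be told apart from a difference in ACK1 transcript level. Of 10 squamous and basal markers, 9 were detected above the filter in this line, led by KRT14, S100A2 and SOX2, whereas PKP1 was near 0. Their summed level was 2856 to 2888 CPM in Control, 1481 to 1522 for WT and 1942 to 2068 for IDRmut. The single markers went both ways. Against Control, edgeR's quasi-likelihood test (adjusted p under 0.05) called 2 higher and 6 lower in WT, and 4 higher and 4 lower in IDRmut. Between WT and IDRmut it called 1 higher and 8 lower in WT. Of all tested genes, 35.0%, 31.6% and 26.5% were called in these comparisons. The part of these marker differences in the results was not tested. Of 5 general epithelial markers, EPCAM and CDH1 were near 0, at or under 0.156 CPM in every group mean. KRT8 averaged 12 CPM in Control, 28.1 in WT and 72.3 in IDRmut. In the same order KRT18 averaged 1.65, 10.7 and 7.08 CPM, and KRT19 1.75, 0.776 and 1.47. The 8 leukocyte markers summed to between 0.507 and 1.26 CPM in any library, with CD3E, CD3D and MS4A1 among those at 0. Of the fibroblast and endothelial markers, COL1A2 averaged 828 CPM in Control, 669 in WT and 878 in IDRmut, and CDH5 213, 39.4 and 92.1. COL1A1 (at most 1.69 CPM in a group mean) and PECAM1 (at most 0.217) were low. In such bulk RNA, fewer cells expressing a gene and less RNA per cell cannot be told apart. The labels do not say that replicates are separate cultures, so p-values reflect sample-to-sample spread alone, and that spread could be technical. The IDRmut replicates differed most. Their mean chi-square per gene against counting error was 3.73, beside 1.7 for Control and 1.55 for WT. The fit shares 1 estimate of spread among the groups. Errors of IDRmut comparisons could thus be too small, and those of WT against Control too large.

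Compared per length (CPM divided by exon length in kilobases), STAT3 was the most abundant member. It ranged from 32.3 to 44.8 over the 6 libraries and averaged 37, above 93.3% of tested genes. JAK1 followed at a mean of 24.6 and TYK2 at 18.7, and their libraries overlapped neither each other nor STAT3. STAT5B (mean 7.73) and STAT2 (mean 7.2) were next. In Control the 2 STAT5B libraries (7.09 and 7.60) lay above those of STAT2 (6.09 and 6.24), in WT they overlapped (7.58 and 7.86 against 8.05 and 7.77), and in IDRmut STAT5B was again above (7.92 and 8.33 against 7.33 and 7.70). JAK2 averaged 3.12 and STAT5A 1.04, the latter above 27.0% of tested genes. STAT6 was nearly silent at a mean of 0.0191.

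**Figure D1:**
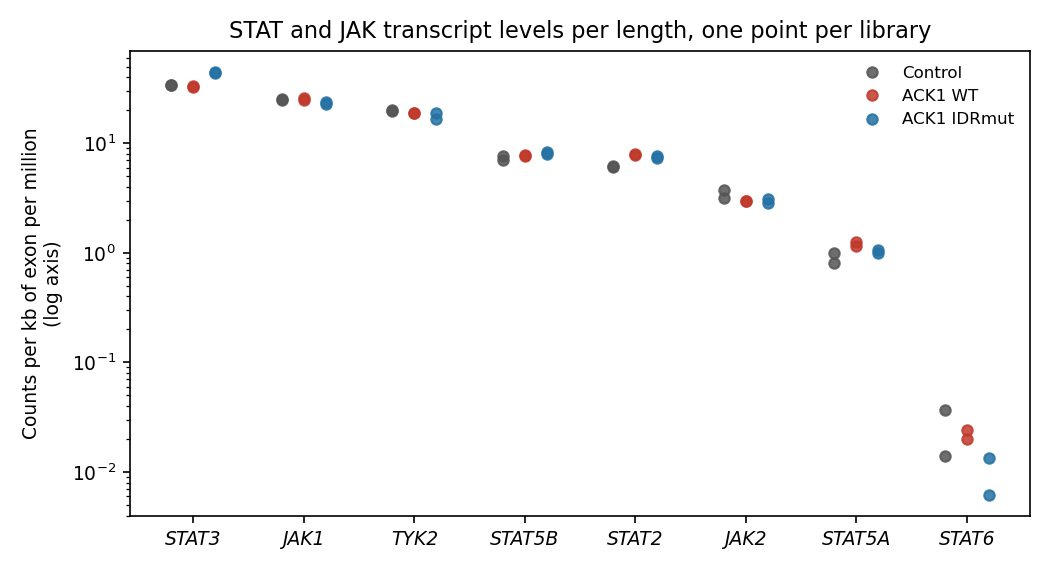
Level of each member per length (CPM per kb of exon, log axis), one point per library, coloured by group and ordered by the mean over all libraries. STAT3 averages 37, JAK1 24.6 and STAT5A 1.04, and STAT6 lies far below all others at 0.0191.

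STAT2, the STAT of the interferon complex ISGF3, was higher with either form of ACK1. The Control libraries had 37.2 and 38.1 CPM, those of WT 49.2 and 47.5, and those of IDRmut 44.8 and 47, from 710 to 1625 counts per library. Both ACK1 groups lay above both Control libraries, and the lower WT library stayed just above the highest IDRmut library. Its log2 fold change was 0.36 ± 0.06 (SE; adjusted p 8.1e-05 by edgeR's quasi-likelihood test) in WT against Control, a ratio of 1.28. In IDRmut against Control it was 0.29 ± 0.06 (adjusted p 9.8e-04 by edgeR), a ratio of 1.22. WT and IDRmut did not pass the test of their difference (0.07 ± 0.05, edgeR adjusted p 0.37), and the 95% interval of their ratio ran from 0.971 to 1.13. The WT and IDRmut comparisons with Control share the Control libraries and are not independent of each other.

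STAT3, which transmits interleukin-6 family signals, separated the IDRmut cells from both other groups. The Control libraries had 300.1 and 298 CPM, those of WT 293 and 284, and those of IDRmut 385 and 395, from at least 5551 counts in a library. The IDRmut libraries were the highest, and the WT libraries lay slightly under those of Control without overlapping them. In IDRmut it rose by 0.38 ± 0.04 over Control (adjusted p 3.2e-07 by edgeR), a ratio of 1.30. It was lower in WT than in IDRmut by -0.43 ± 0.04 (edgeR adjusted p 8.9e-08), a ratio of 0.740 with a 95% interval from 0.703 to 0.779. WT against Control gave -0.05 ± 0.04 (edgeR adjusted p 0.29), with a ratio between 0.915 and 1.02 by the 95% interval. IDRmut is the group with the lower of both raised TNK2 levels. The absolute difference of STAT3 between WT and IDRmut was larger than that of 83.3% of tested genes.

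STAT5A, the less abundant of the STAT5 genes, was called higher in WT. The Control libraries had 112 and 86 counts (5.67 and 4.62 CPM), those of WT 147 and 226 (7.19 and 6.6 CPM), and those of IDRmut 124 and 127 (6.08 and 5.77 CPM). The groups did not overlap and IDRmut lay between Control and WT, although the 2 Control libraries were themselves farther apart than those of the other groups. WT against Control gave 0.41 ± 0.13 (edgeR adjusted p 0.022), a ratio of 1.33 with a 95% interval from 1.10 to 1.61. The call was lost with DESeq2 (adjusted p 0.17), without Control replicate 2 (0.27, edgeR adjusted p 0.23) and without WT replicate 1 (0.36, edgeR adjusted p 0.099). IDRmut against Control was 0.20 ± 0.14 (edgeR adjusted p 0.31) and WT against IDRmut 0.21 ± 0.12 (edgeR adjusted p 0.24). The interval of the ratio of WT to IDRmut, 0.964 to 1.39, leaves room for a difference at this depth.

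STAT5B carried most of the STAT5 transcript and was called in no comparison by edgeR's quasi-likelihood test. Its levels were 45.7 and 49 CPM for Control, 48.9 and 50.6 for WT, and 51 and 53.7 for IDRmut. Control and WT overlapped, and IDRmut was the highest. IDRmut against Control was 0.15 ± 0.06 with an unadjusted p of 0.019 and an edgeR adjusted p of 0.058. It passed with upper-quartile scaling (0.18, edgeR adjusted p 0.024), with total counts (0.19, 0.017), with a minimum of 1 CPM in 2 libraries (0.16, 0.043), without IDRmut replicate 1 (0.18, 0.019) and with fitted offsets for each gene's GC content and length, chosen after the data were seen (0.16, 0.013). WT against Control was 0.08 ± 0.06 (edgeR adjusted p 0.32), with a 95% interval from -0.04 to 0.19.

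Taken as a pair, most STAT5 counts came from STAT5B in all 6 libraries. STAT5A made up 11% (95% exact binomial interval 9.17 to 13.1) and 8.62% (6.95 to 10.5) of the STAT5 counts in Control, 12.8% (10.9 to 14.9) and 11.5% (10.1 to 13) in WT, and 10.6% (8.93 to 12.6) and 9.69% (8.15 to 11.4) in IDRmut. These intervals treat every read as independent and leave out the spread between libraries. PCR copies are not separate molecules, so the intervals could be too narrow even for counting error. The WT shares were the highest and did not overlap those of Control. Their intervals overlapped those of Control, except that of WT replicate 1 with that of Control replicate 2. Per length, the summed STAT5 level was 8.24 ± 0.23 in Control, 8.92 ± 0.12 in WT and 9.15 ± 0.26 in IDRmut (SD, n = 2), a description without a test.

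STAT6, the STAT of interleukin-4 signalling, had 2 and 5 counts for Control, 3 and 6 for WT, and 2 and 1 for IDRmut. It did not pass the filter on low counts and was not tested, so 7 of the 8 members were. At no more than 0.269 CPM in a library, no difference between groups was detectable at this depth. Among the family genes outside the 8 members, STAT4, known from lymphocytes, was as low, with 2 to 5 counts per library. JAK3, the kinase of gamma-chain receptors in lymphocytes, had 6 and 5 counts for Control, 1 and 15 for WT, and 13 and 21 for IDRmut. For JAK3, IDRmut against Control gave 1.46 ± 0.56 (edgeR adjusted p 0.056) and WT against Control 0.02 ± 0.66 (0.99). The first passed with upper-quartile scaling (edgeR adjusted p 0.046), total counts (0.046), no filter (0.013) and the GC and length offsets (0.028). It also passed with only the 2 groups in the fit (0.021). Without WT replicate 1 or 2 that difference was 1.46, and without IDRmut replicate 1 it was 1.71. The WT to IDRmut difference of JAK3 was -1.45 ± 0.51 (edgeR adjusted p 0.044) on these few counts. That call was lost with DESeq2 (adjusted p 0.22), with only the 2 groups in the fit (edgeR adjusted p 0.070), and without Control replicate 1 (0.076), Control replicate 2 (0.075), WT replicate 1 (0.25) or IDRmut replicate 2 (0.24).

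**Figure D2:**
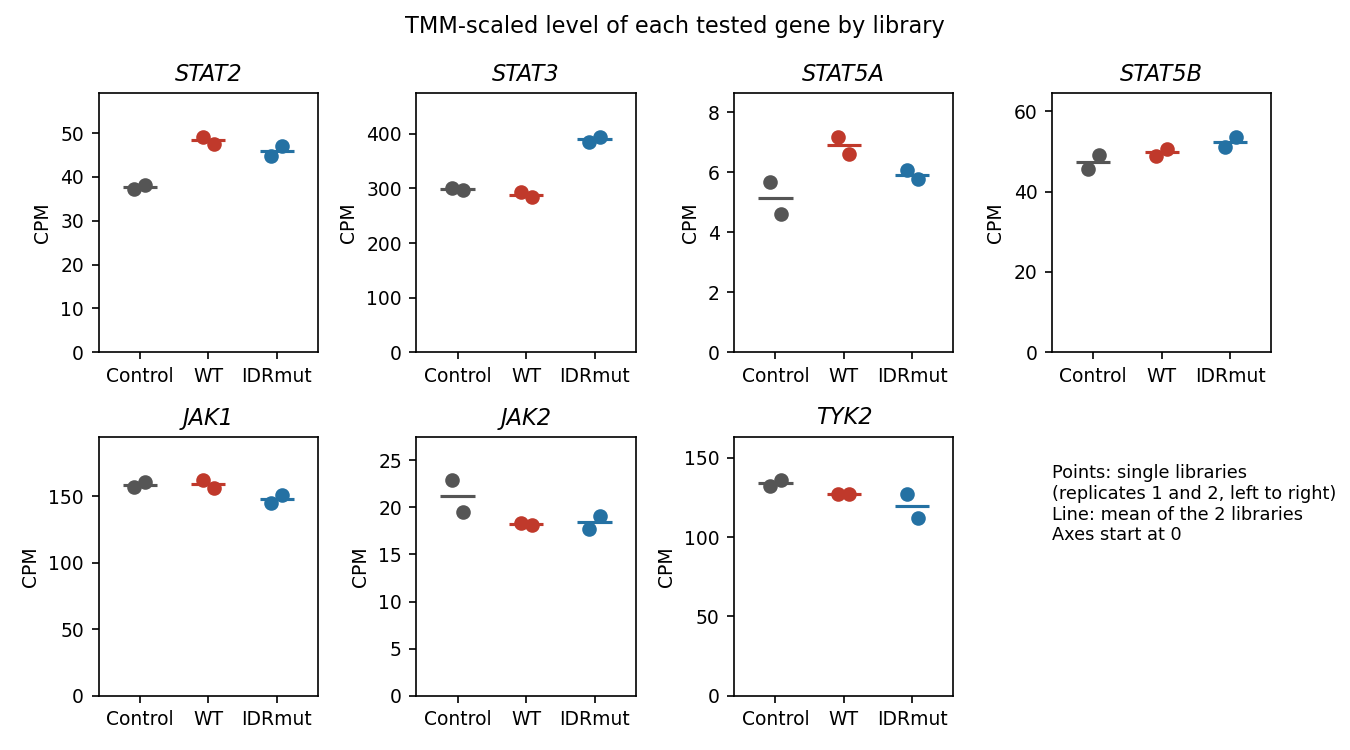
Scaled level (CPM, axes from 0) of the 7 tested members in the 2 libraries of each group, with points for libraries and lines for means. STAT2 is higher in both ACK1 groups, STAT3 reaches 385 and 395 CPM in IDRmut, and the JAK panels show small steps between groups.

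JAK1, the kinase shared by interferon, gp130 and gamma-chain receptors, was called in no comparison by edgeR. Its levels were 157 and 160.4 CPM for Control, 162 and 156 for WT, and 145 and 151 for IDRmut. Control and WT overlapped, and the 2 IDRmut libraries were the lowest. WT against Control gave 0.00 ± 0.04 on the log2 scale, and the 95% interval of the ratio, 0.942 to 1.06, bounds any difference at about that size. IDRmut against Control was -0.10 ± 0.04 (unadjusted p 0.025, edgeR adjusted p 0.072) and WT against IDRmut 0.10 ± 0.04 (unadjusted p 0.023, edgeR adjusted p 0.077). The first passed the test with the GC and length offsets (edgeR adjusted p 0.036) and without IDRmut replicate 2 (0.013), and the second with those offsets (0.011), with total counts (0.029) and without IDRmut replicate 2 (0.016).

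JAK2, the kinase of hormone-type receptors such as those of growth hormone and prolactin, was called lower in WT. Its levels were 22.9 and 19.5 CPM for Control, 18.3 and 18.1 for WT, and 17.7 and 19.1 for IDRmut, from 360 to 620 counts. Both Control libraries lay above the others, replicate 2 by little. WT against Control was -0.22 ± 0.08 (edgeR adjusted p 0.046), a ratio of 0.856, and IDRmut against Control -0.21 ± 0.09 (edgeR adjusted p 0.077), a ratio of 0.865. The WT call rests on Control replicate 1: without it the difference was -0.11 with an edgeR adjusted p of 0.48. It was also lost with DESeq2 (adjusted p 0.22), upper-quartile scaling (edgeR adjusted p 0.084), total counts (0.15), no filter (0.071), the 1 CPM minimum (0.058), and without WT replicate 1 (0.11) or 2 (0.17). In IDRmut it passed without Control replicate 2 (-0.32, edgeR adjusted p 0.029) and without IDRmut replicate 2 (-0.27, 0.040), and it was -0.09 without Control replicate 1. WT and IDRmut overlapped, at -0.02 ± 0.08 (edgeR adjusted p 0.92; ratio between 0.874 and 1.12).

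TYK2, the kinase of the type I interferon receptor, was called lower in IDRmut. Its levels were 132 and 136 CPM for Control, 127 and 127 for WT, and 127 and 112 for IDRmut. IDRmut replicate 2 stood apart from the other 5 libraries. In IDRmut it was lower than in Control by -0.17 ± 0.05 (edgeR adjusted p 0.018), a ratio of 0.889. Without IDRmut replicate 2 the difference was -0.08 (edgeR adjusted p 0.16), and without IDRmut replicate 1 it was -0.27. The call was also lost without Control replicate 1 (-0.19, 0.062), without Control replicate 2 (-0.15, 0.13) and with total counts (-0.13, 0.058). WT against Control gave -0.07 ± 0.05 (edgeR adjusted p 0.28). WT against IDRmut was 0.10 ± 0.05 (edgeR adjusted p 0.18), and it passed without IDRmut replicate 1 (0.19, edgeR adjusted p 8.6e-04).

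In WT against Control, edgeR called 3 of the 7 tested members, 2 higher (STAT2 and STAT5A) and 1 lower (JAK2), where 35.0% of all tested genes were called. In IDRmut against Control it also called 3, with STAT2 and STAT3 higher and TYK2 lower, where 31.6% of tested genes were called. Between WT and IDRmut it called 1, STAT3, lower in WT, against 26.5% of tested genes called in either direction and 12.3% called lower. None was called higher in WT than in IDRmut by edgeR, DESeq2 or limma-voom, where edgeR called 14.2% of tested genes higher. At an unadjusted p under 0.05 in edgeR 1 member was higher, a looser threshold than that behind the 14.2%. With 7 members, these counts are no result about the members as a set. Their median absolute log2 fold changes were 0.08, 0.20 and 0.10, beside 0.18, 0.18 and 0.15 for all tested genes. Groups whose libraries do not overlap are common in these data, at 69.2%, 63.3% and 61.5% of tested genes in the same order. Calls over all genes were 49.8% higher in WT and 49.5% higher in IDRmut against Control. With total counts and no scaling factor these shares were 67% and 60.1%, and the median of all genes in WT against Control moved from 0.00 to 0.07.

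**Figure D3:**
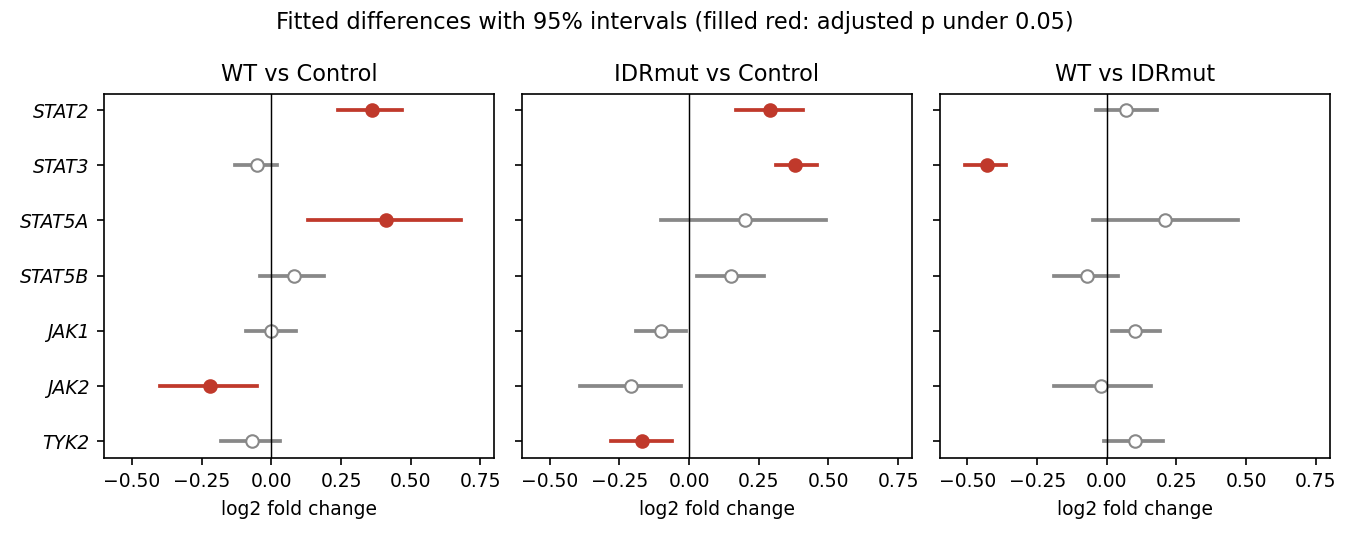
Fitted log2 fold changes of the 7 tested members with 95% intervals in each comparison (filled red: edgeR adjusted p under 0.05). STAT3 lies at 0.38 in IDRmut against Control and at -0.43 in WT against IDRmut, while the other members of the last panel reach across 0 or miss the threshold.

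**Figure D4:**
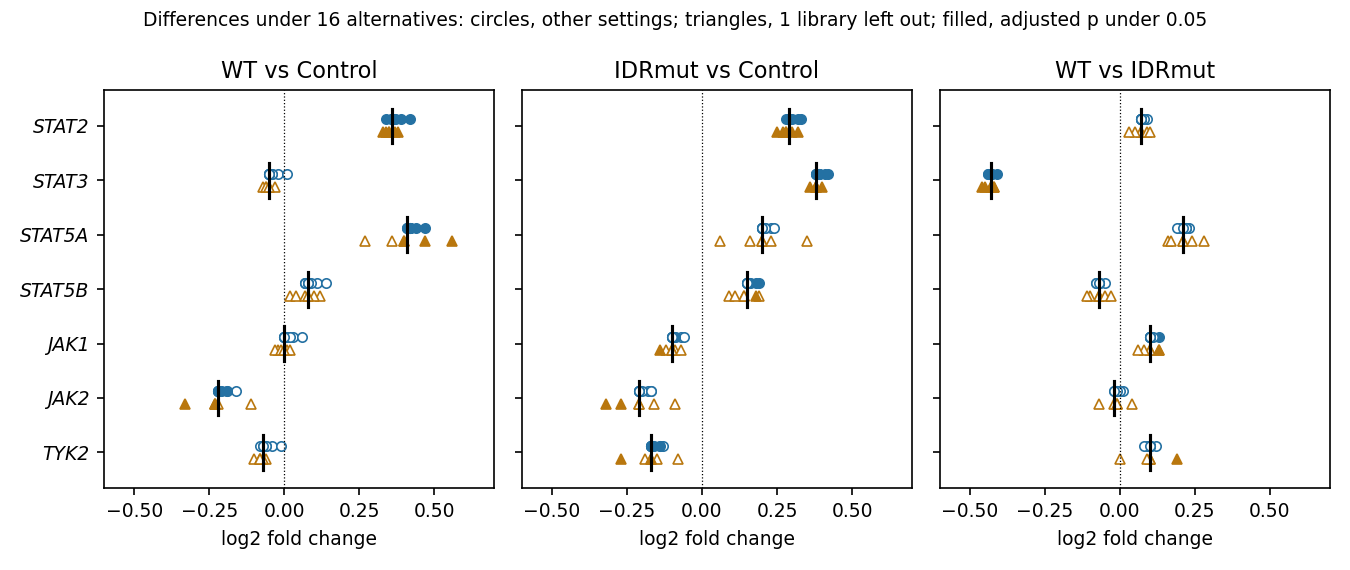
Log2 fold change of each tested member under 16 alternatives (circles: other tools, scalings, filters or designs; triangles: 1 library left out; filled: adjusted p under 0.05; black line: value as reported). STAT2 stays between 0.33 and 0.42 in WT against Control and STAT3 between 0.36 and 0.42 in IDRmut against Control, whereas JAK2 in WT ranges from -0.33 to -0.11.

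The plot of alternatives separates the firm values from the loose ones. STAT2 against Control kept its call in all 16 alternatives, from 0.33 to 0.42 in WT and from 0.25 to 0.33 in IDRmut. STAT3 kept its call in all 16 in IDRmut against Control (0.36 to 0.42) and in WT against IDRmut (-0.46 to -0.41). It stayed uncalled in all 16 in WT against Control (-0.07 to 0.01). The WT call of STAT5A, that of JAK2 and the IDRmut call of TYK2 did not hold in all of them.

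As shares of the summed per-length level of the 5 STAT members, STAT3 made up 70.2 ± 0.61% in Control, 66 ± 0.40% in WT and 72.6 ± 0.26% in IDRmut (SD, n = 2). STAT2 made up 12.7 ± 0.18%, 15.9 ± 0.14% and 12.3 ± 0.17%. The sum itself was 48.4 ± 0.20 (Control), 49.6 ± 0.79 (WT) and 60.9 ± 1.31 (IDRmut). The STAT2 share was highest in WT, and the sum was highest in IDRmut. The 3 JAK genes summed to 48.3 ± 0.36, 46.9 ± 0.71 and 44 ± 0.70, with JAK1 between 51.5% and 55%, TYK2 between 37.9% and 42.1% and JAK2 between 6.26% and 7.72% in any library. These shares are descriptions without a test.

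Across the 6 libraries, which share their group structure, the members did not follow 1 pattern. Pearson's r of log2 CPM was 0.79 for STAT2 with STAT5A and 0.23 for STAT2 with STAT3, and 0.11 for STAT5A with STAT5B. STAT3 and JAK1 ran opposite to each other, at -0.83. When 10898 genes averaging 5 CPM or more were compared, the profile closest to STAT2 was that of SKIC8, with a root mean square difference of 0.00993 on the log2 scale, followed by TOM1L1 (0.0233). SLC17A5, a lysosomal sialic acid transporter, was closest to STAT3 (0.0286), ahead of EPB41L4A-AS1 (0.0346). PARD6B and LIG4 were closest to STAT5A (0.0531 and 0.0546), and ATAD1 and SFXN4 to STAT5B (0.0199 and 0.0201). For the kinases they were YBX1 and YWHAQ for JAK1 (0.00962 and 0.0111), HOOK3 and MOB4 for JAK2 (0.0239 and 0.0273), and PPP6R1 and PRRC2B for TYK2 (0.0112 and 0.0148).

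Neighbouring genes gave values of their own. Within 100000 bases of STAT3, CAVIN1 gave -0.09 (edgeR adjusted p 0.063) and ATP6V0A1, a proton pump subunit, rose by 0.41 (edgeR adjusted p 1.0e-05) in IDRmut against Control. ATP6V0A1 was lower in WT than in IDRmut by -0.28 (edgeR adjusted p 4.4e-04), where STAT3 was at -0.43. PAN2, which lies 7544 bases from STAT2, fell by 0.39 on the log2 scale in WT against Control. The RNA sensor DHX58, 86435 bases from STAT5B, rose by 2.01 (WT) and 2.21 (IDRmut) over Control, where STAT5B gave 0.08 and 0.15. These neighbours were named after their values were seen.

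Over all tested genes, 17.4% were called higher and 17.6% lower in WT against Control, 15.6% and 15.9% in IDRmut against Control, and 14.2% and 12.3% in WT against IDRmut, and the counts of each pathway list that follow are to be read beside these shares. Of 15 tested receptor chains for interferons, interleukin-10 and gp130 family cytokines, 4 rose and 2 fell in WT against Control, 5 rose and 1 fell in IDRmut, and WT exceeded IDRmut in 3 and was below it in 3 (medians 0.18, 0.21 and -0.07; 0.00 for all tested genes in each comparison). LIFR, the leukemia inhibitory factor receptor, rose by 0.56 ± 0.06 in WT. OSMR, the oncostatin M receptor, averaged 163 ± 0.74 CPM for Control, 149 ± 2.76 for WT and 188 ± 2.41 for IDRmut (SD, n = 2). It rose by 0.21 in IDRmut against Control (edgeR adjusted p 4.8e-04) and was lower in WT than in IDRmut by -0.34 (3.6e-06). Its WT against Control difference of -0.13 (edgeR adjusted p 0.014) lost the call with DESeq2 (adjusted p 0.054), upper-quartile scaling (0.063) and total counts (0.2), and without Control replicate 1 (0.091) or 2 (0.068) or WT replicate 1 (0.15) or 2 (0.054). Of 11 tested chains for gamma-chain, interleukin-4, beta-common and hormone-type cytokines, 6 rose and 1 fell in WT, 8 rose and 1 fell in IDRmut, and WT exceeded IDRmut in 4 and was below it in 2 (medians 0.52, 0.61 and 0.22). IL7R, the interleukin-7 receptor, rose from 12 ± 0.57 to 41.3 ± 0.34 CPM (WT) and 28.8 ± 0.44 CPM (IDRmut). PRLR, the prolactin receptor, was lower in WT than in IDRmut by -0.35 ± 0.07.

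IL4R, a receptor chain that signals through STAT6, averaged 0.131 ± 0.042 CPM for Control and rose to 4.61 ± 0.43 with WT and 1.66 ± 0.22 with IDRmut (SD, n = 2), in cells with at most 6 STAT6 counts in a library. Of 9 tested genes listed as STAT6 targets, IL4R among them, 6 rose and 1 fell in WT. In IDRmut 1 rose and none fell by edgeR, with 4 higher and none lower at an unadjusted p under 0.05 and, by DESeq2, 1 higher and none lower. Between WT and IDRmut 4 were higher and 2 lower (medians 0.68, 0.41 and 0.75). TGM2, a transglutaminase, rose by 1.26 ± 0.11 and GATA3, a lineage transcription factor, by 0.57 ± 0.09 in WT. STAT6 itself was not detected above the filter, and whether these genes answer to it was not tested.

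Inhibitors of the pathway changed gene by gene. Of 19 tested, 5 rose and 2 fell in WT, 2 rose and 3 fell in IDRmut, and WT exceeded IDRmut in 3 and was below it in 2 (medians 0.04, 0.03 and 0.06). SOCS5, a suppressor of cytokine signalling, averaged 72.9 ± 1.59 CPM for Control, 85.6 ± 1.21 for WT and 125 ± 1.08 for IDRmut (SD, n = 2), highest in IDRmut like STAT3. PTPN1, a phosphatase that acts on JAK2 and TYK2, fell by 0.35 in WT and by 0.19 in IDRmut on the log2 scale. SH2B3, an adaptor that restrains JAK2, rose by 0.49 ± 0.07 in WT and gave 0.03 ± 0.07 in IDRmut. Of 19 tested cofactors of STAT proteins, 3 rose and 3 fell in WT and 3 rose and 7 fell in IDRmut (medians -0.03 and -0.08). Between WT and IDRmut 2 were higher (median 0.07) and none lower by edgeR, also none at an unadjusted p under 0.05 and none by DESeq2. IRF9, the DNA-binding partner of STAT2, rose from 1.74 ± 0.26 CPM to 5.2 ± 0.46 in WT and 4.6 ± 0.28 in IDRmut, and exons of other genes cover 48.4% of its exon bases. The deacetylase HDAC1 fell by 0.20 in IDRmut and gave 0.04 in WT.

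The remaining lists hold genes known as targets of single STATs. Of 19 tested ISGF3 targets, 17 rose in WT, 16 rose in IDRmut and 17 were higher in WT than in IDRmut (medians 2.65, 2.11 and 0.62). None was lower in any of the 3 comparisons by edgeR, DESeq2 or an unadjusted p under 0.05. IFIT1, an antiviral RNA-binding protein, differed between WT and IDRmut by 1.08 ± 0.06, where STAT2 differed by 0.07 and IRF9 by 0.16 ± 0.14 (edgeR adjusted p 0.44). Of 17 tested STAT3 targets, 4 rose and 5 fell in WT, 8 rose and 5 fell in IDRmut, and WT exceeded IDRmut in 2 and was below it in 6 (medians 0.04, 0.07 and -0.07). VEGFA, the angiogenic growth factor, fell by 0.28 in WT and rose by 0.38 ± 0.05 in IDRmut. CEBPD, a transcription factor of acute-phase responses, rose by 1.10 ± 0.11 in IDRmut and gave 0.22 ± 0.12 in WT. BCL3 fell by 1.00 in WT and by 0.21 in IDRmut, the latter with a DESeq2 adjusted p of 0.06.

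The STAT5 targets went both ways. Of 17 tested, 5 rose and 3 fell in WT, 6 rose and 4 fell in IDRmut, and WT exceeded IDRmut in 5 and was below it in 5 (medians 0.04, 0.07 and 0.06). The STAT3 and STAT5 lists share 5 of their 17 tested genes (29.4% of each), among them MCL1 and PIM1. The STAT5 and STAT6 lists share 3 (BCL6, CISH and SOCS1), which is 33.3% of the tested STAT6 targets. The inhibitors share 4 with the STAT5 targets (CISH, SOCS1, SOCS2 and SOCS3) and 2 with the STAT6 targets. Some other pairs of lists share 1 gene, so the counts of the lists are not independent. Of 18 tested tyrosine kinases and adaptors that act on STATs beside the JAKs, 5 rose and 4 fell in WT, 3 rose and 3 fell in IDRmut, and WT exceeded IDRmut in 3 and was below it in 4 (medians 0.03, -0.04 and 0.04). The receptor kinase PDGFRA averaged 57.7 ± 1.87 CPM for Control, 29.5 ± 2.02 for WT and 57.6 ± 0.88 for IDRmut (SD, n = 2), and other genes' exons cover 15.8% of its exon bases. EGFR, the epidermal growth factor receptor, was higher in WT than in IDRmut by 0.36 ± 0.04. FGFR1 gained 0.86 ± 0.07 (WT) and 1.21 ± 0.07 (IDRmut) over Control, and SRC 1.21 ± 0.16 and 0.83 ± 0.17.

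**Figure D5:**
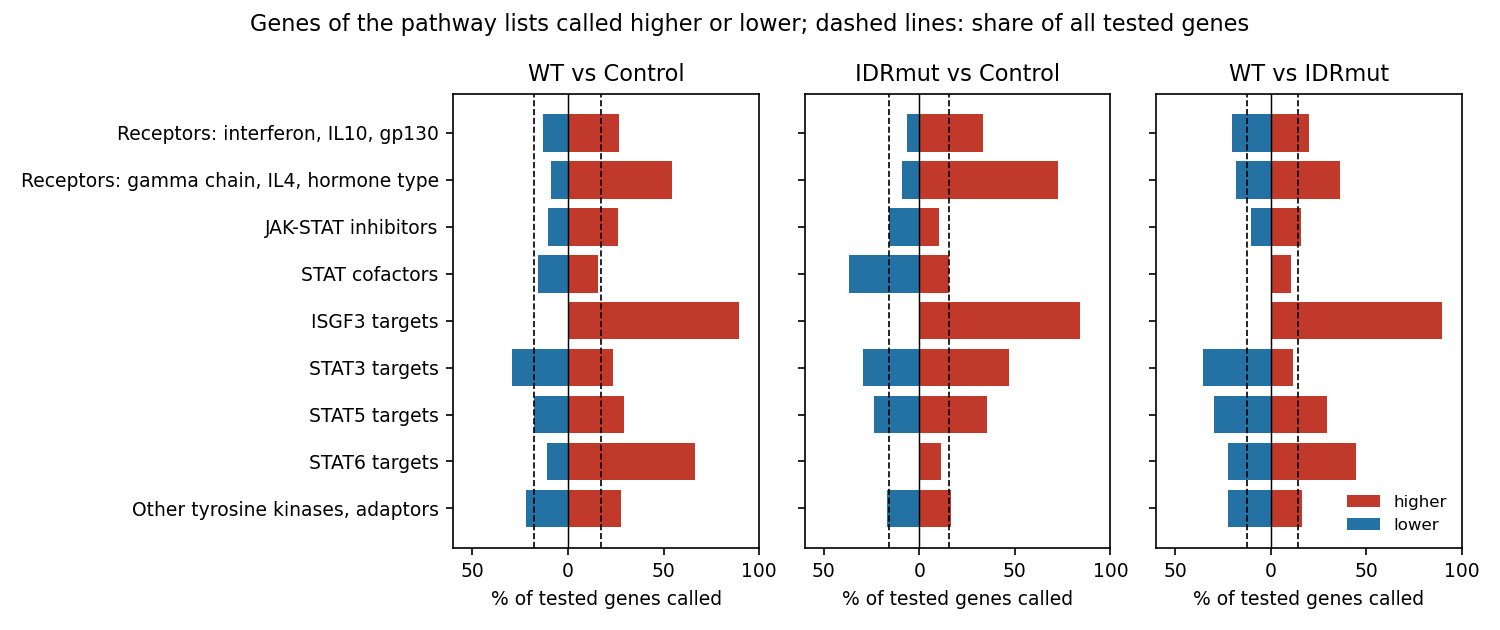
Share of the tested genes of each pathway list that edgeR called higher (red, to the right) or lower (blue, to the left) in each comparison, with dashed lines at the share over all tested genes. The ISGF3 targets stand out with 17 of 19 higher in WT against Control, and the cofactors have 7 of 19 lower in IDRmut against Control.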

How the data were processed

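The deposited table held raw counts of reads per gene for 6 libraries, with no normalization or pooling. The submitters' processing notes list HISAT2 2.2.1, SAMtools 1.14, featureCounts 2.0.1 and GRCh38. The sources used here do not give the annotation release, whether strand was used, or how reads matching several places were counted. Gene names matched 61369 IDs in a current table and 105 more in GENCODE release 29, which also gave positions and exon lengths and may not be the authors' release. RefSeq held upstream sequence for all 8 members.

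Genes were kept by filterByExpr (minimum count 10, minimum total 15), libraries were scaled by TMM, and all 6 entered 1 fit of group means in edgeR 4.0.16 (R 4.3.3), tested by the quasi-likelihood test with Benjamini-Hochberg adjustment over 16591 genes and a threshold of 0.05. SE values are the absolute log2 fold change over the root of the F statistic, and 95% intervals use the fit's degrees of freedom. Depth was 19128111 to 33540998 counts per library, and the biological coefficient of variation was 0.0294. The fit was tested on simulated counts. Alternatives were DESeq2 1.42.0, limma-voom (limma 3.58.1), other scalings, filters and designs, each library left out, and 2 chosen after seeing the data (the correction for GC content and length, and crossed replicate numbers).

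The members and gene lists were chosen with earlier results of these data known, so lists are described by counts beside all tested genes and got no test of their own. Named are the 8 members, TNK2, STAT4 and JAK3, up to 3 genes per list and comparison with the smallest adjusted p, and the 2 genes most like each member. A few genes that meet this rule are not reported here.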

Additional observations from a re-analysis of the deposited data

How the results depend on the processing

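Of 336 recomputed differences of the 7 tested members, 307 kept their direction and side of the threshold, 16 lost the call and 13 gained one, and none that was called in either fit changed sign. STAT2 against Control and STAT3 in both comparisons with IDRmut held throughout. Over all genes, edgeR called 5806 in WT against Control, 5236 in IDRmut against Control and 4396 between WT and IDRmut. DESeq2 called 3649, 3290 and 2435, and leaving out 1 library gave 3976 to 7028, 3451 to 5521 and 2590 to 4761, the lowest of the last being without WT replicate 2 and of the second without Control replicate 1. Of the members, DESeq2 called 1 in WT against Control. The correction for GC content and length called 5 in IDRmut against Control and 2 between WT and IDRmut, and total counts called 2 in the latter. Without 1 library the members called ranged from 1 to 3, 2 to 4 and 1 to 2, with 1 in WT against Control without WT replicate 1. By DESeq2, the interferon, interleukin-10 and gp130 receptor list had 3 calls in WT against Control and 3 between WT and IDRmut. The cofactors had 2, 5 and 1, and the inhibitors 3 in IDRmut against Control. The STAT6 targets in IDRmut against Control had 3 calls with upper-quartile scaling, 3 with total counts, 2 with limma-voom and 3 with the GC and length correction. That correction gave the cofactors 4 and the tyrosine kinases 11 between WT and IDRmut. Leaving out 1 library gave the interferon, interleukin-10 and gp130 receptors 3 to 6 calls in WT against Control and 3 to 6 between WT and IDRmut, the other receptors 5 to 8 in IDRmut against Control, the inhibitors 3 to 7 there and 4 to 9 between WT and IDRmut, the cofactors 3 to 7, 5 to 10 and 1 to 3, and the STAT6 targets 1 to 2 in IDRmut against Control. The cause of these changes was not tested. Nothing in the labels pairs the samples by replicate number, and deviations of same-numbered libraries correlated at -0.0212, -0.0463 and -0.131. With the replicate block edgeR called 5440, 4839 and 3965 genes and 2, 3 and 1 members, with JAK2 in WT against Control at an adjusted p of 0.071; with the IDRmut numbers crossed it called 6028, 5478 and 4587 genes and 3, 3 and 1 members. STAT5A, JAK2, STAT6 and JAK3 have the fewest counts, so depth limits them most.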
